A study of Mus musculus with 8 samples.

Results

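A genotype by treatment interaction asks whether a treatment changes a gene by a different amount in 2 genotypes. Here it is the log2 change with dextran sulfate sodium (DSS) in mice lacking Rora in the intestinal epithelium, minus the same change in mice with floxed Rora alleles. All 8 of 8 libraries of the series enter it, since the difference needs all 4 groups. The groups of 2 libraries each were untreated RORaf/f (called WT here), untreated RORaΔIEC (called KO here), DSS-treated WT and DSS-treated KO. All were C57BL/6, and RNA came from epithelial cells shaken off the distal colon. Treated mice drank 2% (w/v) DSS for 5 days and then plain water for 3 days. WT mice carry floxed Rora alleles as the KO mice do, and the labels name no Cre driver, age or sex. The labels also do not say that the libraries of a group came from separate mice. Every p-value therefore measures only how far these samples spread, and that spread may be technical.

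DSS is a sulfated polymer that strips the colon epithelium and is widely used as a model of colitis. Cells at the crypt base then divide to close the lesion, while goblet cells replace the mucus and enterocytes release antimicrobial proteins. Rora encodes RORα, a nuclear receptor that binds DNA as a monomer, activates clock genes in competition with REV-ERB repressors and acts on lipid metabolism. RORα has also been described to raise transcription of Nfkbia, whose product IκBα holds NF-κB in the cytoplasm. An interaction can arise because the genotypes part after injury, because they differ before it and converge, or by a mixture, so the level in each library is given first.

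Library totals ran from 15971642 to 20418466 expected counts, and 14991 of 53379 listed genes passed the filter on low counts. Levels are given as CPM, counts relative to library size after TMM scaling. Chi-square per degree of freedom between the libraries of a group was 1.29 to 2.13 in 3 groups and 4.85 in DSS-treated KO, so the libraries of that group were farthest apart. Mitochondrially encoded genes took 4.91% and 5.29% of counts in DSS-treated KO and 7.23% to 8.05% in the other libraries. Rora itself was 0.601 and 0.336 CPM in untreated WT libraries and 0.961 and 0.824 after DSS. In KO, Rora was 0.254 and 0.184 CPM untreated and 0.460 and 0.286 after DSS. It was low in every library, and its interaction was -0.15 ± 0.83, adjusted p = 0.931. Untreated counts of Rora were 12 and 6 in WT and 4 and 3 in KO. By edgeR's quasi-likelihood test, the log2 difference of KO from WT was -1.10 ± 0.58 untreated, adjusted p = 0.238. Under DSS the difference of Rora was -1.24 ± 0.45, adjusted p = 0.0425. A lower level of Rora in KO was thus called under DSS only. The summed level of 10 general epithelial genes was 14941 to 17850 CPM over the 8 libraries. In bulk samples, fewer cells of a type and less RNA per cell cannot be told apart.

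Of the 14991 genes tested, 3208 (21.4%) had an interaction at an adjusted p under 0.05 by edgeR's quasi-likelihood test. For 1613 of them (10.8% of genes tested) the interaction was positive, meaning that the DSS change was higher in KO, and for 1595 (10.6%) it was negative. Counts of positive and negative members of each list below are to be set against these shares. At least 2-fold interactions were 548 (3.66%), and the median size over the 3208 genes was 0.45 on the log2 scale. With libraries scaled on the general epithelial genes instead, 2018 of 2985 called genes were positive (67.6%, against 50.3%), so the balance of positive and negative calls depends on the scaling. DSS itself raised 2834 genes (18.9%) and lowered 2739 (18.3%) in WT, and raised 3259 (21.7%) and lowered 2972 (19.8%) in KO. A gene called in KO and not in WT need not have an interaction: of 2927 such genes 1637 had none, and of 2269 called in WT and not in KO, 1454 had none. Conversely, of 3304 genes called in both genotypes 2306 (69.8%) had no interaction call.

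The 3208 genes were sorted by which responses passed the threshold. The largest class responded in KO only (1290 genes, 8.61% of genes tested), followed by WT only (815, 5.44%), the same sign with a larger size in KO (521, 3.48%), opposite signs (311, 2.07%) and the same sign with a smaller size in KO (166, 1.11%). A further 105 genes (0.700%) had an interaction with no response past the threshold in either genotype. The number of calls was 1891 when untreated KO replicate 1 was left out, 1903 when DSS-treated WT replicate 1 was, 1914 for untreated WT replicate 1 and 1985 for untreated KO replicate 2. The KO only class held 780 genes without untreated KO replicate 1 and 809 without replicate 2, and the WT only class 366 without DSS-treated WT replicate 1. The opposite class held 154 without untreated WT replicate 1 and 661 without DSS-treated KO replicate 1, the larger class 310 without DSS-treated WT replicate 1, and the smaller class 77 without untreated KO replicate 1. Genotypes differed at 2310 genes (15.4%) untreated and at 5855 (39.1%) under DSS. The untreated count was 953 or 991 without either untreated KO library and 1094 or 1226 without either untreated WT library. Among the interaction genes, they differed under DSS only at 2012 (62.7%), untreated only at 354, in both states with the same sign at 383 (11.9%) and in both with opposite signs at 286 (8.92%).

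**Figure D1:**
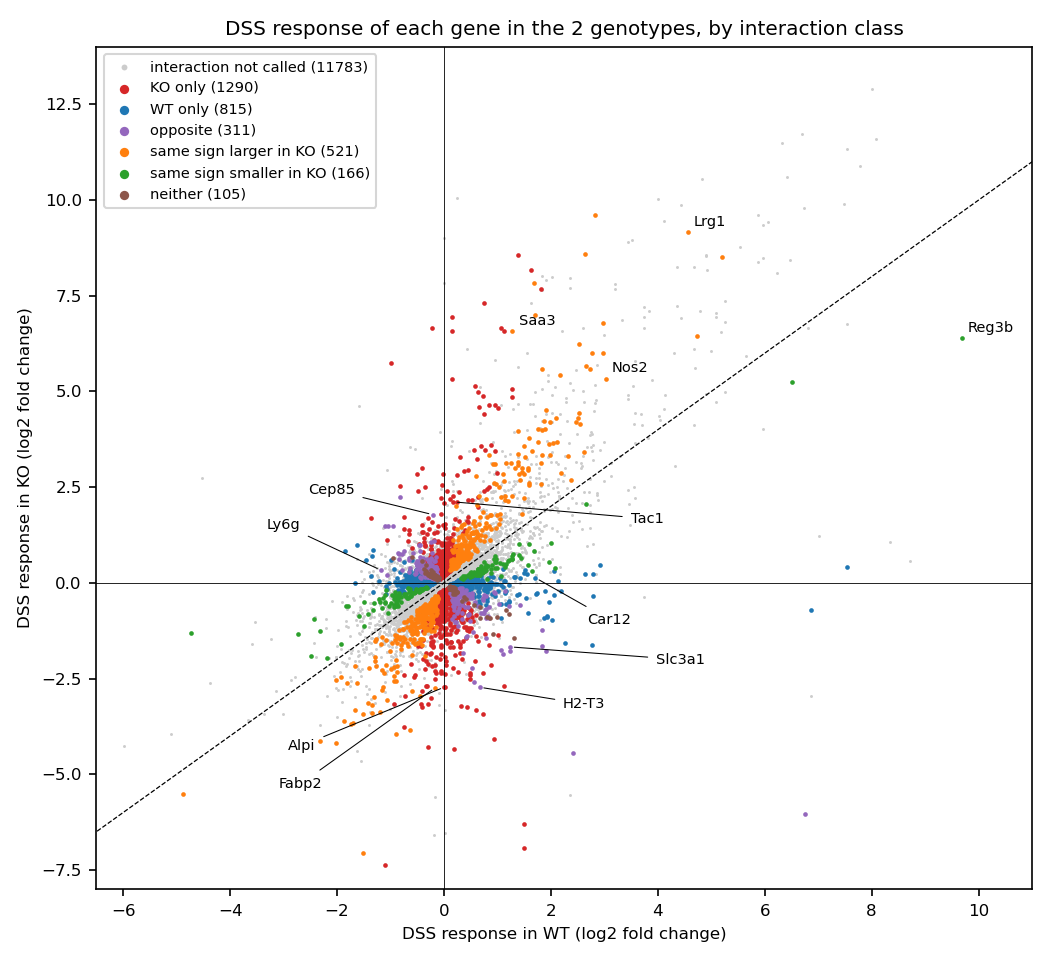
Log2 change with DSS in KO (vertical axis) against that in WT (horizontal axis), 1 point per gene tested, coloured by class, with the dashed line marking equal change. The 1290 KO only genes lie along the vertical axis and the 815 WT only genes along the horizontal one, and Reg3b stands far below the line while Saa3 and Lrg1 stand far above it.

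Genes named by class or list below were picked by size or p-value of the interaction, or after their values were seen. How their libraries separate therefore describes the chosen genes and is no separate result. Genes that responded in KO only included 673 that rose and 617 that fell. Tac1, the precursor of the neuropeptide substance P (ENSMUSG00000061762.12, chromosome 6, 7554879 to 7565834), was 4.65 and 4.71 CPM in untreated WT libraries and 5.65 and 4.95 after DSS. In KO, Tac1 was 6.35 and 4.59 CPM untreated and 22.7 and 24.7 after DSS. Only the DSS-treated KO pair stood apart, and the other 6 libraries overlapped, with log2 changes of 0.18 in WT and 2.12 in KO and an interaction of 1.94 ± 0.21 (SE, adjusted p = 2.07e-05). Ier3, an immediate-early gene that NF-κB induces, went from 7.71 and 8.85 CPM untreated to 6.97 and 6.59 after DSS in WT, and from 7.37 and 5.88 to 16.7 and 18.6 in KO. Ier3 had log2 changes of -0.28 in WT and 1.41 in KO and an interaction of 1.70 ± 0.18 (SE, adjusted p = 1.93e-05). Ankdd1b went from 5.71 and 6.16 CPM untreated to 5.47 and 6.48 after DSS in WT, and from 5.40 and 5.75 to 15.0 and 15.0 in KO (interaction 1.41 ± 0.18, adjusted p = 7.96e-05). Aspa, which cleaves N-acetylaspartate, went from 5.71 and 5.21 CPM untreated to 4.15 and 4.42 after DSS in WT, and from 3.88 and 4.71 to 9.84 and 7.38 in KO (interaction 1.35 ± 0.25, adjusted p = 0.00152). All 4 were higher in each DSS-treated KO library than in any other library.

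Among the genes that fell in KO only, Alpi, the intestinal alkaline phosphatase of the brush border (ENSMUSG00000079440.2, chromosome 1, 87098002 to 87101606), was 7.46 and 7.12 CPM in untreated WT libraries and 7.15 and 7.54 after DSS. In KO, Alpi was 21.2 and 22.8 CPM untreated and 3.16 and 3.49 after DSS. WT libraries did not separate by treatment, whereas in KO the gene began about 3 times higher than in WT and ended below it, with log2 changes of 0.01 in WT and -2.72 in KO and an interaction of -2.73 ± 0.17 (SE, adjusted p = 8.95e-08). Mal, a proteolipid of apical membrane sorting, went from 16.7 and 14.7 CPM untreated to 15.4 and 12.6 after DSS in WT, and from 31.0 and 28.2 to 5.98 and 6.01 in KO (interaction -2.13 ± 0.16, adjusted p = 6.96e-07). The alpha-2A adrenergic receptor gene Adra2a went from 13.9 and 13.8 CPM untreated to 15.7 and 16.2 after DSS in WT, and from 24.6 and 23.4 to 6.90 and 6.12 in KO (interaction -2.08 ± 0.13, adjusted p = 9.15e-08). Otc, a urea cycle enzyme, went from 10.4 and 7.56 CPM untreated to 7.69 and 7.83 after DSS in WT, and from 13.7 and 13.2 to 2.65 and 3.26 in KO (interaction -1.97 ± 0.23, adjusted p = 3.41e-05). All 4 were higher in every untreated KO library than in every untreated WT library and lower in DSS-treated KO than in any other library.

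Genes that responded in WT only included 416 that rose and 399 that fell. Car12, a membrane carbonic anhydrase (ENSMUSG00000032373.15, chromosome 9, 66713686 to 66766845), was 24.4 and 23.3 CPM in untreated WT libraries and 77.2 and 79.4 after DSS. In KO, Car12 was 38.4 and 38.7 CPM untreated and 44.1 and 40.3 after DSS. Both DSS-treated WT libraries were above all others, and the KO libraries lay between the WT states, with log2 changes of 1.71 in WT and 0.13 in KO and an interaction of -1.58 ± 0.09 (SE, adjusted p = 3.22e-08). Kcnh3, a voltage-gated potassium channel, went from 7.61 and 7.73 CPM untreated to 17.2 and 16.8 after DSS in WT, and from 8.58 and 9.92 to 7.997 and 7.38 in KO (interaction -1.42 ± 0.15, adjusted p = 1.98e-05). Sprr1a, a cornified envelope precursor, went from 3.003 and 3.42 CPM untreated to 8.95 and 9.83 after DSS in WT, and from 7.24 and 7.28 to 8.57 and 8.47 in KO (interaction -1.32 ± 0.18, adjusted p = 0.000190). Its DSS-treated groups lay close together. Hoxa11, a homeobox gene, went from 5.66 and 3.70 CPM untreated to 10.4 and 14.8 after DSS in WT, and from 8.45 and 8.32 to 9.55 and 8.70 in KO (interaction -1.29 ± 0.26, adjusted p = 0.00312). Kcnh3 and Hoxa11, like Car12, were highest in both DSS-treated WT libraries.

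Of the 4 leading genes that fell in WT only, 3 encode parts of the DNA replication machinery. Mcm3, a subunit of the replicative helicase (ENSMUSG00000041859.10, chromosome 1, 20802968 to 20820312), was 33.0 and 33.6 CPM in untreated WT libraries and 16.6 and 15.0 after DSS. In KO, Mcm3 was 50.2 and 48.5 CPM untreated and 44.8 and 49.0 after DSS. DSS-treated WT was the lowest group and both KO groups were the highest, with log2 changes of -1.08 in WT and -0.07 in KO and an interaction of 1.002 ± 0.10 (SE, adjusted p = 8.43e-06). Rpa2, which coats single-stranded DNA, went from 13.1 and 13.6 CPM untreated to 7.21 and 7.30 after DSS in WT, and from 17.1 and 16.2 to 17.3 and 18.9 in KO (interaction 0.999 ± 0.13, adjusted p = 0.000120). Pole2, a subunit of DNA polymerase epsilon, went from 5.36 and 6.05 CPM untreated to 3.24 and 3.18 after DSS in WT, and from 6.67 and 5.33 to 7.54 and 7.04 in KO (interaction 1.11 ± 0.22, adjusted p = 0.00309), and its call was lost with offsets for effective gene length (0.77, adjusted p over the alternatives 3.24e-05 to 0.111). Syt8, a synaptotagmin, went from 7.66 and 7.73 CPM untreated to 4.51 and 3.53 after DSS in WT, and from 9.09 and 10.5 to 10.7 and 14.4 in KO (interaction 1.29 ± 0.23, adjusted p = 0.00134), and was likewise lost with those offsets (0.90, adjusted p over the alternatives 1.52e-09 to 0.128).

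Opposite responses were found at 146 genes that rose in KO and fell in WT, and at 165 that did the reverse. Cep85, a centrosomal protein (ENSMUSG00000037443.13, chromosome 4, 134129858 to 134187112), was 39.9 and 35.7 CPM in untreated WT libraries and 33.2 and 32.5 after DSS. In KO, Cep85 was 23.9 and 22.5 CPM untreated and 78.7 and 80.7 after DSS. Untreated and DSS-treated KO were the lowest and highest groups, on either side of WT, with log2 changes of -0.21 in WT and 1.78 in KO and an interaction of 1.99 ± 0.09 (SE, adjusted p = 7.38e-09). Ly6g, a GPI-anchored protein known as a neutrophil surface antigen, went from 99.2 and 97.2 CPM untreated to 42.2 and 44.7 after DSS in WT, and from 85.7 and 85.8 to 103 and 112 in KO (interaction 1.504 ± 0.08, adjusted p = 1.48e-08). Abcg5, a subunit of a sterol exporter, went from 8.46 and 7.73 CPM untreated to 4.45 and 4.95 after DSS in WT, and from 6.86 and 6.67 to 11.8 and 11.1 in KO (interaction 1.54 ± 0.17, adjusted p = 2.81e-05). C2cd4b went from 7.61 and 6.22 CPM untreated to 3.18 and 4.53 after DSS in WT, and from 4.38 and 5.51 to 8.17 and 8.47 in KO (interaction 1.59 ± 0.25, adjusted p = 0.000498). Each of the 4 was higher in both DSS-treated KO libraries than in any other library.

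Leading the reverse pattern, H2-T3, a non-classical class I molecule known from intestinal epithelium (ENSMUSG00000054128.16, chromosome 17, 36185572 to 36190287), was 6.61 and 7.56 CPM in untreated WT libraries and 11.8 and 10.7 after DSS. In KO, H2-T3 was 16.2 and 16.2 CPM untreated and 2.07 and 2.80 after DSS. Every untreated KO library was above every WT library and every DSS-treated KO library below them, with log2 changes of 0.67 in WT and -2.73 in KO and an interaction of -3.40 ± 0.19 (SE, adjusted p = 4.44e-08). Slc3a1, the heavy subunit of the cystine and dibasic amino acid transporter, went from 9.86 and 12.0 CPM untreated to 26.7 and 24.8 after DSS in WT, and from 24.5 and 23.5 to 7.997 and 7.04 in KO (interaction -2.91 ± 0.15, adjusted p = 1.38e-08). The lipid transporter gene Abca12 went from 3.90 and 4.48 CPM untreated to 9.79 and 8.30 after DSS in WT, and from 10.3 and 9.49 to 3.16 and 2.29 in KO (interaction -2.97 ± 0.23, adjusted p = 8.77e-07). Prkg2, the cGMP-dependent kinase of enterocytes, went from 4.75 and 5.60 CPM untreated to 6.67 and 8.65 after DSS in WT, and from 9.72 and 9.43 to 1.55 and 1.60 in KO (interaction -3.17 ± 0.25, adjusted p = 8.85e-07). Slc3a1 and Abca12 after DSS in WT were about where they were in KO before it.

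A shared direction with a larger change in KO was seen at 267 genes that rose and 254 that fell. Saa3, an acute-phase serum amyloid (ENSMUSG00000040026.8, chromosome 7, 46711998 to 46715700), was 0.501 and 0.392 CPM in untreated WT libraries and 1.14 and 1.06 after DSS. In KO, Saa3 was 0.191 and 0.306 CPM untreated and 23.6 and 25.6 after DSS. All untreated libraries were near the detection limit and the DSS-treated groups were more than 20-fold apart, with log2 changes of 1.28 in WT and 6.58 in KO and an interaction of 5.31 ± 0.54 (SE, adjusted p = 1.06e-05). Srgn, the granule proteoglycan serglycin of blood cells, went from 0.501 and 0.336 CPM untreated to 3.24 and 3.47 after DSS in WT, and from 0.0635 and 0.306 to 21.7 and 21.2 in KO (interaction 3.82 ± 0.60, adjusted p = 0.000485). Untreated KO held only 1 and 5 counts of Srgn, and its interaction ran from 3.13 to 5.28 over the alternatives. Lrg1, an acute-phase glycoprotein also stored in neutrophils, went from 0.2503 and 0.0560 CPM untreated to 4.03 and 3.77 after DSS in WT, and from 0.318 and 0.122 to 124 and 135 in KO (interaction 4.61 ± 0.99, adjusted p = 0.00477). Its call was lost without untreated WT replicate 1 (3.22, adjusted p over the alternatives 1.32e-06 to 0.325), and its untreated values rest on few counts. Of those that fell, Fabp2, the intestinal fatty acid binding protein (ENSMUSG00000023057.5, chromosome 3, 122895072 to 122899506), was 128 and 123 CPM in untreated WT libraries and 110.03 and 115 after DSS. In KO, Fabp2 was 232 and 227 CPM untreated and 33.2 and 35.5 after DSS. The fall in WT was slight and that in KO took the gene from the highest group to the lowest, with log2 changes of -0.16 in WT and -2.74 in KO and an interaction of -2.58 ± 0.07 (SE, adjusted p = 2.93e-11). The cytochrome P450 gene Cyp2c55 went from 326 and 314 CPM untreated to 229 and 242 after DSS in WT, and from 382 and 379 to 49.2 and 48.5 in KO (interaction -2.52 ± 0.07, adjusted p = 2.03e-11). Tppp, a tubulin-binding protein, went from 70.3 and 70.8 CPM untreated to 44.2 and 49.5 after DSS in WT, and from 127 and 134 to 19.6 and 17.4 in KO (interaction -2.23 ± 0.10, adjusted p = 3.35e-09). As with Fabp2, both were highest in untreated KO and lowest in DSS-treated KO.

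A smaller change in KO was the rarest of the shared directions, with 89 genes that rose and 77 that fell. Reg3b, an antibacterial C-type lectin (ENSMUSG00000071356.7, chromosome 6, 78370657 to 78373466), was 0.350 and 0.0560 CPM in untreated WT libraries and 178 and 182 after DSS. In KO, Reg3b was 1.02 and 1.78 CPM untreated and 114 and 124 after DSS. Both genotypes went from near the detection limit to over 100 CPM, to a higher level in WT, with log2 changes of 9.69 in WT and 6.403 in KO and an interaction of -3.28 ± 0.51 (SE, adjusted p = 0.000475). Untreated WT held 7 and 1 counts of Reg3b, and without replicate 1 of that group the interaction was -5.07 (adjusted p over the alternatives 2.09e-11 to 0.0132). Sptssb, a small subunit of serine palmitoyltransferase, went from 17.5 and 18.5 CPM untreated to 68.4 and 72.5 after DSS in WT, and from 35.0 and 32.5 to 49.3 and 49.96 in KO (interaction -1.41 ± 0.09, adjusted p = 1.23e-07). Rassf4, a Ras-association protein, went from 4.71 and 5.38 CPM untreated to 21.7 and 20.5 after DSS in WT, and from 7.31 and 6.61 to 8.75 and 9.50 in KO (interaction -1.68 ± 0.16, adjusted p = 7.97e-06). All 3 were higher in untreated KO than in untreated WT and lower in DSS-treated KO than in DSS-treated WT. For genes that fell, the sialyltransferase gene St8sia5 went from 17.3 and 17.1 CPM untreated to 4.15 and 2.24 after DSS in WT, and from 9.02 and 8.08 to 4.49 and 4.46 in KO (interaction 1.498 ± 0.26, adjusted p = 0.00103). S100g, the calcium-binding protein calbindin-D9k, went from 12.9 and 9.53 CPM untreated to 1.502 and 1.88 after DSS in WT, and from 5.91 and 6.49 to 3.11 and 1.83 in KO (interaction 1.40 ± 0.35, adjusted p = 0.0119), a call lost without DSS-treated WT replicate 1 (1.25) and without DSS-treated KO replicate 1 (0.97, adjusted p over the alternatives 9.78e-06 to 0.0692). One of the gene models with the symbol Srp54a (ENSMUSG00000112449.1) had an interaction of 3.42, but near-identical copies share its reads and the value is uncertain. Of the 105 genes with no response past the threshold, Mad2l2 (0.61 ± 0.18, adjusted p = 0.0272) and the tubulin gene Tuba1a (-0.83 ± 0.27, adjusted p = 0.0399) lead by the naming rule. Both calls were lost with DESeq2, with effective-length offsets and without untreated WT replicate 1 (0.52 and -0.71) or DSS-treated WT replicate 1 (0.66 and -0.60). Each was also lost under 3 other omissions of a library (adjusted p over the alternatives 0.0201 to 0.275; for Tuba1a 0.00217 to 0.211).

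**Figure D2:**
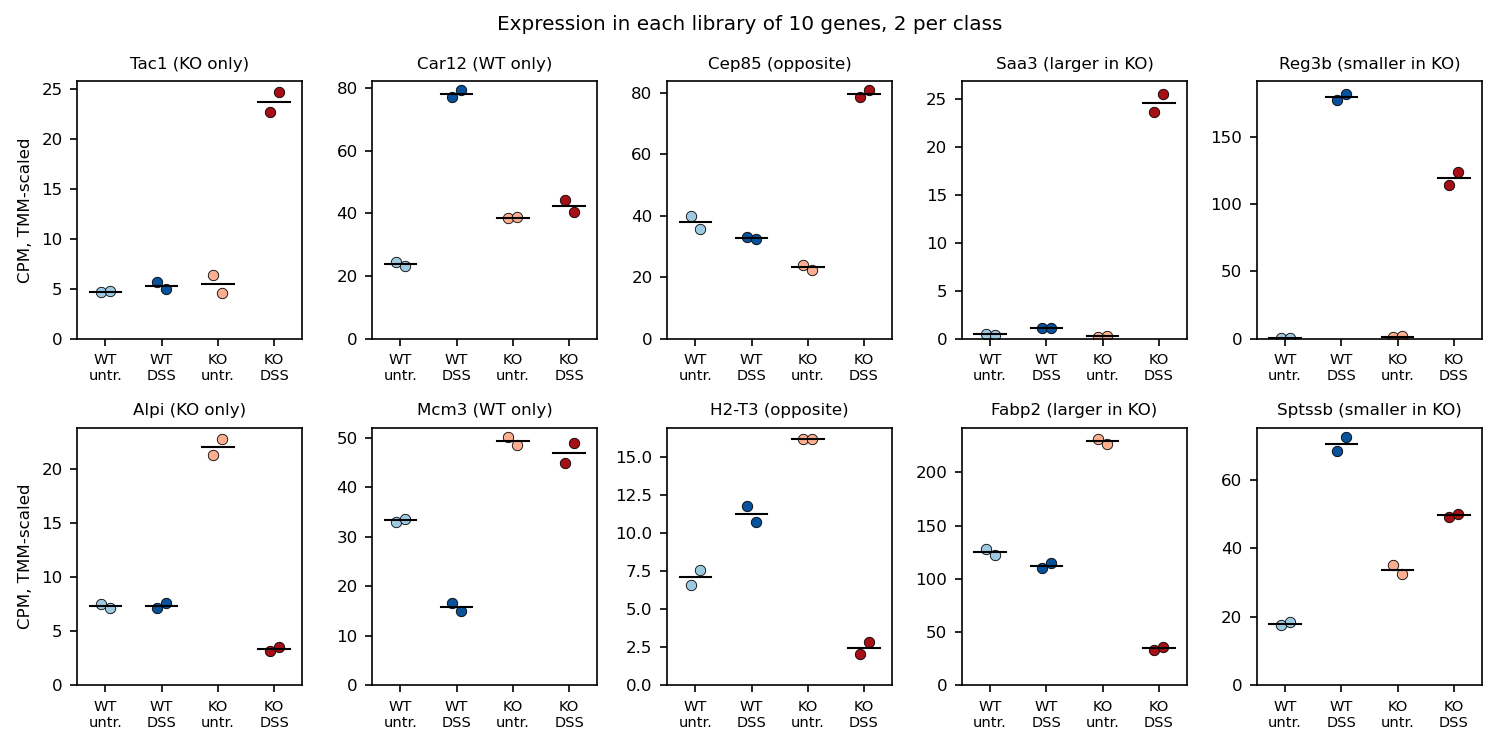
TMM-scaled CPM (vertical axes, each from 0) of 10 genes in untreated (untr.) and DSS-treated WT and KO; each point is 1 library and each line the mean of 2. Tac1 and Saa3 are high only in DSS-treated KO, Car12 and Reg3b are highest in DSS-treated WT, and Alpi, H2-T3 and Fabp2 are highest in untreated KO and lowest in DSS-treated KO.

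Neutrophils are the first blood cells to enter injured mucosa, and their granule genes were almost absent before DSS. Of 14 measured neutrophil markers, S100a8, Retnlg, Mmp8, Cxcr2, Ngp and Clec4e had 0 counts in all 4 untreated libraries. S100a8, a calcium-binding alarmin, had 62 counts over DSS-treated WT and 1939 over DSS-treated KO, so it was at least 23.2-fold higher with DSS in WT and at least 595-fold higher in KO. For its partner S100a9 the ratio was 136-fold (counting interval 24.0 to 5420.0) in WT and 965-fold (counting interval 329.8 to 4680.2) in KO. Retnlg was at least 9.37-fold higher in WT and at least 264-fold higher in KO. These intervals and bounds, at 95% confidence or against 3 counts over the group, cover counting error only. All 14 markers summed to 259 to 269 CPM in untreated WT and 230 to 233 in untreated KO. After DSS the sums were 473 to 480 CPM in WT and 722 to 770 in KO. Ly6g and Cd177 exceeded 80 CPM in every untreated library and were set aside after their values were seen. The other 12 markers summed to 0.224 to 0.651 CPM in untreated WT and 0.318 to 0.490 in untreated KO. Their sums were 13.5 to 14.4 CPM in DSS-treated WT and 236 to 251 in DSS-treated KO. Markers near 0 counts untreated passed the filter on low counts only through DSS-treated libraries. These sums therefore describe the chosen members and test nothing.

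Only 2 of the 14 neutrophil markers had an interaction call (10.8% positive over all genes). Both were positive: Ly6g, and Ltf, the granule protein lactoferrin, which went from 0.551 and 0.0560 CPM untreated to 0.541 and 0.530 after DSS in WT, and from 0.127 and 0.306 to 5.06 and 4.58 in KO (3.67 ± 0.89, adjusted p = 0.00983) and lost its call without untreated WT replicate 1 (1.32) and with effective-length offsets (1.14, adjusted p over the alternatives 2.51e-05 to 0.7002). Camp, Elane and Mpo, granule genes of the same list, were below the filter on low counts. Of the 14 that were tested, 11 had 3 counts or fewer over at least 1 group, and such a gene passes the filter only through groups where it is higher, so counts of members that differ between groups are not given for this list. A difference of log2 changes is poorly determined where untreated counts are near 0. Over all genes, 103 had 3 counts or fewer in each untreated group, and 7 of them had an interaction call.

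Of 13 macrophage and monocyte markers, 2 had 3 counts or fewer over at least 1 group. Among the 13, 6 had a positive interaction (10.8% over all genes). For 1, Mrc1, it was negative (-1.21, 10.6% over all genes), a call lost under 7 of the 8 omissions of a library. Without untreated KO replicate 2 the positive count was 3. Cd14, the lipopolysaccharide co-receptor, which some epithelia also express, went from 39.4 and 40.7 CPM untreated to 47.2 and 47.8 after DSS in WT, and from 39.7 and 42.3 to 106 and 112 in KO (interaction 1.16 ± 0.08, adjusted p = 2.39e-07). Lyz2, lysozyme of myeloid cells, went from 2.95 and 2.69 CPM untreated to 9.31 and 8.54 after DSS in WT, and from 2.16 and 1.22 to 16.6 and 20.5 in KO (interaction 1.80 ± 0.30, adjusted p = 0.000736). The integrin subunit gene Itgam went from 1.60 and 1.91 CPM untreated to 5.47 and 4.89 after DSS in WT, and from 1.46 and 1.78 to 12.7 and 12.2 in KO (interaction 1.37 ± 0.27, adjusted p = 0.00251). All 3 were highest in DSS-treated KO. The list summed to 59.3 to 66.7 CPM untreated, 88.4 to 89.7 in DSS-treated WT and 174 to 183 in DSS-treated KO. Cd14 alone made up most of the sum in every library, so the sums mainly follow that gene. None of 8 T and NK cell, 9 B and plasma cell and 8 stromal and endothelial markers had an interaction call. Over all genes 21.4% had one. The T and NK cell list summed to only 5.94 to 11.5 CPM over the libraries, and the B and plasma cell list to 2.86 to 14.1. Of the 9 B and plasma cell markers, 4 had 3 counts or fewer over at least 1 group. At such levels the absence of calls does not show equal changes. After DSS, 6 of the 8 stromal and endothelial markers had more expression in KO than in WT (21.3% over all genes). For 1 there was less (2657 of 14991 over all genes). The part of incoming myeloid cells in the interactions of cytokine and acute-phase genes was not tested.

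NF-κB is a dimer that leaves its cytoplasmic inhibitor after inflammatory signals and binds κB sites near its targets, which include that inhibitor and other brakes on the pathway. The promoters of 3 such genes, each with a positive interaction, are printed to show their κB matches beside the data: the inhibitors Nfkbia and Tnfaip3 and the chemokine Cxcl10. Each run is the 250 bases before the start site on the gene's own strand, from RefSeq on GRCm38.p6, with matches to the 10-base NF-κB consensus on either strand in capitals.
Nfkbia, chr12:55492648-55492897, minus strand: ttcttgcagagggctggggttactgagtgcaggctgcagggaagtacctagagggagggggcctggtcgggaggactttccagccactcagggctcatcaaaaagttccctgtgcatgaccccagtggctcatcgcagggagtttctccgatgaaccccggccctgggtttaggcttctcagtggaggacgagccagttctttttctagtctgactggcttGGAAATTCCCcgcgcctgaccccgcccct
Tnfaip3, chr10:19015411-19015660, minus strand: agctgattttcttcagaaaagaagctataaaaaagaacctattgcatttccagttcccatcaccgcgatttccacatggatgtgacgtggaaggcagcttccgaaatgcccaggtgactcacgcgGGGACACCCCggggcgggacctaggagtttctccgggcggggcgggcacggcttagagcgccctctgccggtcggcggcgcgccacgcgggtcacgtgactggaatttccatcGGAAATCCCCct
Cxcl10, chr5:92348890-92349139, minus strand: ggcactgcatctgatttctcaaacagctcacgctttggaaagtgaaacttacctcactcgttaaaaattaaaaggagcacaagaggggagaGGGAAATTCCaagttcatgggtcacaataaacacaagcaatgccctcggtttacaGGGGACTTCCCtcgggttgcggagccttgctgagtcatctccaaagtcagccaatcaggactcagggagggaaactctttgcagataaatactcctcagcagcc
The Nfkbia match begins 29 bases before the start site. Tnfaip3 had 2 promoter windows, and the one not printed (chr10:19011964-19012213) held 0 matches. The promoters of Icam1, Il1b, Il1a, Tnf and Bcl3, also positive, held none. Of 14 NF-κB list members with a positive interaction 11 had a promoter entry, and 6 of these (54.5%) held a match, against 13 of 22 matched members of the whole measured list (59.1%) and 1125 of 10707 matched genes tested (10.5%). Counted per window, 2382 of 32851 promoter windows of this length (7.25%) held one. The list was drawn up from known NF-κB targets, and a match is a description of letters, not of binding.

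Of 28 measured NF-κB targets and cytokines, 14 had a positive interaction (10.8% over all genes) and 1 a negative one (10.6%). Of the 28, 6 had 3 counts or fewer over at least 1 group. Nfkbia, the inhibitor, was 56.9 and 57.8 CPM in untreated WT libraries and 49.6 and 48.6 after DSS. In KO, Nfkbia was 45.8 and 44.8 CPM untreated and 76.98 and 79.4 after DSS. It fell in WT and rose in KO, and DSS-treated KO was the highest group, with log2 changes of -0.22 in WT and 0.79 in KO and an interaction of 1.01 ± 0.07 (SE, adjusted p = 3.45e-07). Tnfaip3, the deubiquitinase A20 that ends NF-κB signalling, went from 74.1 and 74.1 CPM untreated to 70.3 and 71.4 after DSS in WT, and from 71.8 and 71.1 to 95.7 and 92.4 in KO, with a WT change of -0.06 and an interaction of 0.46 ± 0.07, adjusted p = 0.000255. The precursor subunit gene Nfkb2 had a smaller interaction of 0.26, and the interactions of the subunit genes Nfkb1 (0.01), Rel (0.39) and Relb (-0.02) did not pass the test.

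Il1b, Tnf, Cxcl10, Cxcl5, Nos2 and Icam1 were each higher in both DSS-treated KO libraries than in any other library. Of these, Il1b, Tnf, Cxcl10 and Cxcl5 were examples chosen after their values were seen. Their single interactions were not followed over the alternatives. In untreated libraries 3 counts correspond to 0.150 to 0.191 CPM, so the untreated values of Il1b rest on few counts. Il1b, the cytokine interleukin-1 beta, went from 0.3003 and 0.168 CPM untreated to 9.31 and 8.83 after DSS in WT, and from 0.191 and 0.184 to 69.0 and 72.7 in KO (interaction 3.301 ± 0.64, adjusted p = 0.00239). Tnf went from 0.751 and 0.392 CPM untreated to 1.80 and 2.18 after DSS in WT, and from 0.318 and 0.551 to 6.44 and 7.84 in KO (interaction 2.24 ± 0.53, adjusted p = 0.00847). The T cell attracting chemokine gene Cxcl10 went from 1.05 and 2.13 CPM untreated to 0.721 and 0.883 after DSS in WT, and from 1.78 and 1.53 to 4.55 and 4.81 in KO, falling in WT and rising in KO (interaction 2.45 ± 0.45, adjusted p = 0.00151). The neutrophil attracting chemokine gene Cxcl5 went from 0.350 and 0.336 CPM untreated to 0.781 and 1.77 after DSS in WT, and from 0.572 and 1.53 to 20.3 and 19.9 in KO (interaction 2.36 ± 0.72, adjusted p = 0.0312). Nos2, the inducible nitric oxide synthase, was 2.002 and 1.68 CPM in untreated WT libraries and 15.6 and 14.7 after DSS. In KO, Nos2 was 2.41 and 2.20 CPM untreated and 94.0 and 92.9 after DSS. It rose in both genotypes and reached a level about 6 times higher in KO, with log2 changes of 3.03 in WT and 5.34 in KO and an interaction of 2.31 ± 0.22 (SE, adjusted p = 5.15e-06). Icam1, the leukocyte adhesion receptor, went from 2.503 and 2.41 CPM untreated to 3.91 and 3.89 after DSS in WT, and from 2.86 and 2.57 to 13.003 and 13.4 in KO. Icam1 had log2 changes of 0.66 in WT and 2.28 in KO and an interaction of 1.62 ± 0.23 (SE, adjusted p = 0.000194). For Cxcl2, another neutrophil attracting chemokine, the ratio of DSS to untreated was 114-fold (counting interval 19.9 to 4531) in WT and 371-fold (counting interval 127 to 1801) in KO. Of the 28, Il1a, Cxcl1, Cxcl2, Ccl3, Ccl4 and Ptgs2 had 3 counts or fewer in an untreated group, so no median is given for this list, nor for other lists with such members. Sums of the neutrophil markers are given above, and the part of neutrophils in the values of these genes was not tested. The negative exception was Traf1, a signalling adaptor, which went from 10.5 and 9.69 CPM untreated to 6.97 and 8.42 after DSS in WT, and from 16.01 and 15.98 to 5.29 and 6.24 in KO (interaction -1.08 ± 0.17, adjusted p = 0.000574).

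**Figure D3:**
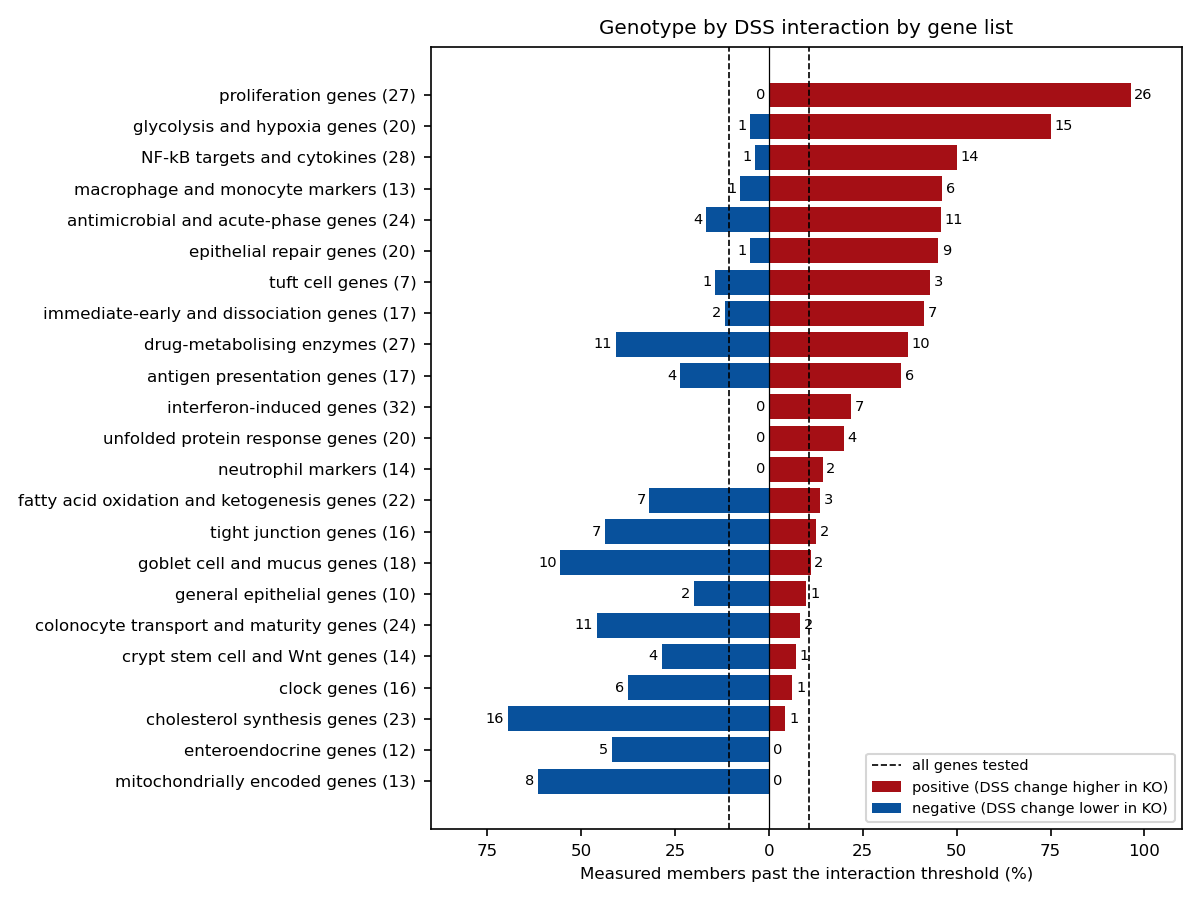
Share of the measured members of each list drawn (number in parentheses) with a positive (red, right) or negative (blue, left) interaction, in percent. Numbers at the bars are genes and dashed lines mark all genes tested (10.8% and 10.6%). The sex-linked, T and NK cell, B and plasma cell, stromal and endothelial, and erythrocyte lists are not drawn. Proliferation (26 of 27) and glycolysis and hypoxia genes (15 of 20) reach farthest to the right, cholesterol synthesis (16 of 23) and mitochondrially encoded genes (8 of 13) farthest to the left.

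Of the 28 lists, proliferation genes had the largest share past the threshold in 1 direction: 26 of 27 had a positive interaction and none a negative one. Their median interaction was 0.75, against 0.01 for all genes, and it combined a median DSS change of -0.01 in WT with 0.61 in KO. The genotypes also differed before DSS, with 26 of 27 higher in untreated KO (9.19% of all genes). All 27 were higher in DSS-treated KO (21.3% of all genes). For 25 of the 26 interaction genes the genotypes differed in both states with the same sign (11.9% of all interaction genes). Rrm1, the large subunit of ribonucleotide reductase, was 48.1 and 47.3 CPM in untreated WT libraries and 33.0 and 35.0 after DSS. In KO, Rrm1 was 66.1 and 70.8 CPM untreated and 96.0 and 97.1 after DSS. It fell in WT and rose in KO, starting from a higher level, with log2 changes of -0.49 in WT and 0.50 in KO and an interaction of 0.98 ± 0.08 (SE, adjusted p = 1.03e-06). Top2a, the topoisomerase of mitotic chromosomes, went from 79.0 and 76.3 CPM untreated to 76.98 and 78.2 after DSS in WT, and from 125 and 115 to 215 and 200.2 in KO. Top2a had log2 changes of 0.00 in WT and 0.79 in KO and an interaction of 0.79 ± 0.08 (SE, adjusted p = 8.04e-06).

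The list held more than 1 pattern. The helicase subunit genes Mcm2 (-0.80 in WT, -0.36 in KO), Mcm4 (-0.81 and -0.07), Mcm5 (-0.77 and 0.05), Mcm6 (-0.91 and -0.24) and Mcm7 (-0.56 and 0.09) fell with DSS in WT and had KO changes nearer 0. Mitotic genes differed from this: the cyclins Ccna2 (0.27 in WT, 1.11 in KO) and Ccnb1 (0.41 and 1.28) rose in both genotypes and by more in KO, and the spindle checkpoint kinase Bub1 had changes of -0.06 and 1.04. By class the 26 were 10 KO only, 6 WT only, 3 opposite, 5 larger in KO and 2 smaller in KO. The exception was Mki67, the cell cycle antigen Ki-67, at 0.23 ± 0.09, adjusted p = 0.0860. Counts stayed at 25 to 27 with each library left out.

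Glycolysis and hypoxia genes had 15 of 20 members positive and 1 negative, with a median interaction of 0.59 (0.01 over all genes) from DSS changes of -0.09 in WT and 0.49 in KO. Of the 16 interaction genes, 12 differed between genotypes under DSS only, a share of 75% against 62.7% over all interaction genes. Pkm, the pyruvate kinase of proliferating cells, was 1179 and 1222 CPM in untreated WT libraries and 947 and 942 after DSS. In KO, Pkm was 1165 and 1180.4 CPM untreated and 1581 and 1673 after DSS. The untreated groups overlapped, DSS-treated WT was lowest and DSS-treated KO highest, with log2 changes of -0.35 in WT and 0.47 in KO and an interaction of 0.82 ± 0.06 (SE, adjusted p = 2.39e-07). Pgk1, phosphoglycerate kinase, went from 407 and 399 CPM untreated to 369 and 386 after DSS in WT, and from 456 and 453 to 756 and 814 in KO (interaction 0.88 ± 0.06, adjusted p = 3.46e-07). Bnip3, a HIF-induced mitophagy receptor, went from 17.5 and 18.1 CPM untreated to 12.2 and 13.4 after DSS in WT, and from 15.5 and 15.6 to 30.8 and 31.0 in KO (interaction 1.46 ± 0.11, adjusted p = 7.33e-07). Slc16a3, the lactate exporter MCT4, went from 4.20 and 4.26 CPM untreated to 9.19 and 9.13 after DSS in WT, and from 4.26 and 4.96 to 31.2 and 34.6 in KO (interaction 1.72 ± 0.18, adjusted p = 1.24e-05). Pfkfb3, which makes the activator of phosphofructokinase, went from 2.10 and 1.74 CPM untreated to 3.005 and 2.88 after DSS in WT, and from 2.16 and 1.90 to 15.0 and 13.2 in KO (interaction 2.18 ± 0.27, adjusted p = 6.76e-05). All 5 genes were highest in DSS-treated KO. The angiogenic HIF target Vegfa did not follow, with log2 changes of -0.56 in WT and -0.54 in KO and an interaction of 0.02 ± 0.07 (SE, adjusted p = 0.853), and the stress gene Ndrg1 was the negative member (-0.28), a call lost with epithelial scaling.

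Among cholesterol synthesis genes with an interaction, the genotypes often differed before DSS and not after it. Of 23 members 16 had a negative interaction and 1, Ebp, a positive one, with a median of -0.36 from DSS changes of 0.50 in WT and 0.25 in KO. DSS raised 22 of the 23 in WT (18.9% of all genes) and 15 in KO (21.7% of all genes), while 20 were already higher in untreated KO (9.19% of all genes). Under DSS, 9 of the 23 were higher in KO than in WT (21.3% of all genes) and 2 were lower (2657 of 14991 over all genes). Of the 17 interaction genes 10 differed between genotypes untreated only (11% of all interaction genes) and 1 under DSS only (62.7%). Hmgcs1, the cytosolic HMG-CoA synthase, was 273 and 268 CPM in untreated WT libraries and 466 and 478 after DSS. In KO, Hmgcs1 was 435 and 436 CPM untreated and 470.1 and 472 after DSS. Untreated WT was the low group and the other 6 libraries lay close together, with log2 changes of 0.80 in WT and 0.11 in KO and an interaction of -0.69 ± 0.05 (SE, adjusted p = 9.49e-07). Cyp51, the lanosterol demethylase, went from 99.7 and 101 CPM untreated to 203 and 198 after DSS in WT, and from 162 and 162 to 213 and 211 in KO. Cyp51 had log2 changes of 0.997 in WT and 0.39 in KO and an interaction of -0.61 ± 0.06 (SE, adjusted p = 7.55e-06). Lss, the lanosterol cyclase, went from 55.3 and 58.2 CPM untreated to 83.9 and 85.02 after DSS in WT, and from 84.8 and 85.3 to 86.0 and 87.6 in KO (interaction -0.55 ± 0.07, adjusted p = 7.17e-05), a call lost with effective-length offsets (-0.44, adjusted p over the alternatives 5.47e-09 to 0.116). The squalene epoxidase gene Sqle (-0.45) and the regulator gene Srebf2 (-0.20) had interactions in the same direction.

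**Figure D4:**
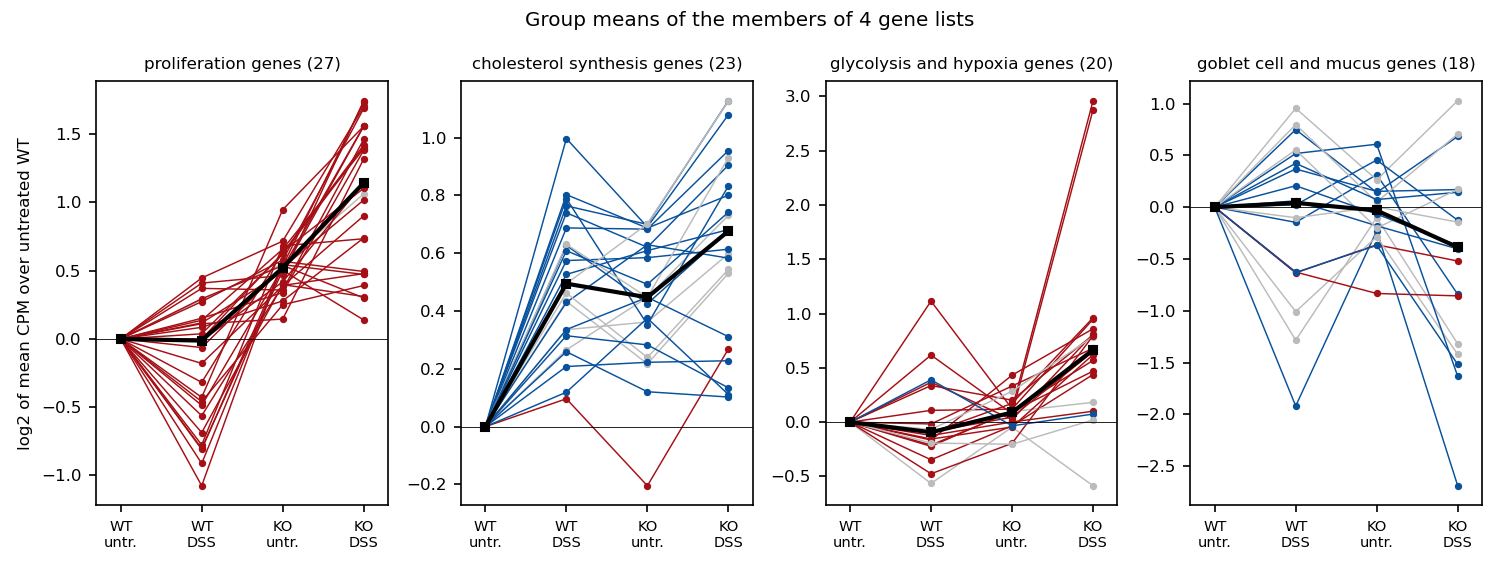
Log2 of each group's mean CPM over untreated WT (vertical axis) in the 4 groups (horizontal axis) for 4 lists; thin lines are genes (red positive, blue negative, grey no interaction call) and the thick black line is the median. Proliferation genes have a median of 0.52 in untreated KO and 1.14 in DSS-treated KO, cholesterol synthesis genes are at 0.45 to 0.68 in all 3 groups other than untreated WT, and glycolysis genes are at 0.66 in DSS-treated KO and within 0.1 of untreated WT elsewhere.

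Fatty acid oxidation and ketogenesis genes were split, with 7 of 22 negative (10.6% over all genes), 3 positive (10.8%) and a median of -0.15. Fabp2 was the negative member with the largest change. Pdk4, a kinase that blocks pyruvate oxidation, was 3.35 and 2.97 CPM in untreated WT libraries and 3.85 and 2.65 after DSS. In KO, Pdk4 was 3.37 and 3.61 CPM untreated and 1.44 and 1.03 after DSS. DSS-treated KO was below all other libraries, with log2 changes of 0.03 in WT and -1.495 in KO and an interaction of -1.53 ± 0.34 (SE, adjusted p = 0.00640). Ppara, the nuclear receptor that drives fat oxidation, went from 7.66 and 8.24 CPM untreated to 7.93 and 7.12 after DSS in WT, and from 10.5 and 9.79 to 4.60 and 3.03 in KO (-1.33 ± 0.22, adjusted p = 0.000805), a call lost with effective-length offsets (-0.70, adjusted p over the alternatives 1.32e-08 to 0.195). The acyl-CoA dehydrogenase genes Acadm (-0.24) and Acadl (0.33) went in opposite directions. Of 13 mitochondrially encoded genes, 8 were negative, with a median of -0.34; without untreated KO replicate 2 or DSS-treated WT replicate 1, or with epithelial scaling, 5 were. mt-Co1, a cytochrome oxidase subunit, was 44057 and 43320.0 CPM in untreated WT libraries and 40920.0 and 41098 after DSS. In KO, mt-Co1 was 40240.0 and 40249 CPM untreated and 26893 and 24753 after DSS. DSS-treated KO was below all other libraries, with log2 changes of -0.09 in WT and -0.64 in KO and an interaction of -0.55 ± 0.05 (SE, adjusted p = 4.37e-06). The complex I subunit genes mt-Nd4 (-0.41 ± 0.07, adjusted p = 0.000633) and mt-Nd1 (-0.37 ± 0.06, adjusted p = 0.00112) had interactions in the same direction. These genes make up the mitochondrial share of counts given above.

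Colonocyte transport and maturity genes had 11 of 24 members negative and 2 positive (4 without DSS-treated KO replicate 1), with a median of -0.15 from DSS changes of -0.35 in WT and -0.78 in KO. Alpi and Prkg2 are described above. Guca2a, the peptide guanylin that signals to enterocytes through cGMP, was 862 and 842 CPM in untreated WT libraries and 613 and 635 after DSS. In KO, Guca2a was 1111 and 1099.8 CPM untreated and 364 and 428 after DSS. It fell in both genotypes and by more in KO, from a higher start, with log2 changes of -0.45 in WT and -1.48 in KO and an interaction of -1.03 ± 0.08 (SE, adjusted p = 9.51e-07). Slc51a, a subunit of the bile acid exporter, went from 1.001 and 0.784 CPM untreated to 1.32 and 1.41 after DSS in WT, and from 5.59 and 5.999 to 0.460 and 0.687 in KO (interaction -3.92 ± 0.40, adjusted p = 1.30e-05), and the carbonic anhydrase gene Car1 had an interaction of -0.62. Several major apical genes fell in both genotypes without an interaction call: the chloride exchanger gene Slc26a3 changed by -1.14 in WT and -1.12 in KO, the aquaporin gene Aqp8 by -1.21 and -1.10, and the carbonic anhydrase gene Car4 by -1.25 and -1.08. The positive members were the sugar phosphate transporter gene Slc37a2 (0.51) and the sodium channel subunit gene Scnn1g (1.22).

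Goblet cell and mucus genes had 10 of 18 members negative and 2 positive, with a median of -0.25 from 0.04 in WT and -0.19 in KO. Muc2, the gel-forming mucin of the colon, was 3346 and 3498 CPM in untreated WT libraries and 3219 and 2965 after DSS. In KO, Muc2 was 4281 and 4226 CPM untreated and 2016 and 1806 after DSS. DSS-treated KO was below all other libraries, with log2 changes of -0.15 in WT and -1.15 in KO and an interaction of -1.01 ± 0.07 (SE, adjusted p = 4.02e-07). B3gnt6, the enzyme that builds the core 3 glycans of colonic mucin, went from 10.5 and 10.6 CPM untreated to 16.1 and 14.2 after DSS in WT, and from 15.8 and 16.4 to 3.11 and 3.72 in KO. B3gnt6 had log2 changes of 0.52 in WT and -2.24 in KO and an interaction of -2.75 ± 0.16 (SE, adjusted p = 6.45e-08). Clca1, a secreted mucus protease, went from 5005 and 4919.5 CPM untreated to 1326 and 1299 after DSS in WT, and from 4236 and 4236 to 774 and 766 in KO (interaction -0.54 ± 0.05, adjusted p = 3.18e-06); as a difference in CPM its sign reversed (184 CPM, a smaller loss in KO). The secretory fate factors Atoh1 (-0.28) and Spdef (-0.35) were negative as well, whereas the trefoil peptide gene Tff3 (0.48) and the channel gene Best2 (0.60) were positive. The mucus proteins Fcgbp (-1.28 in WT, -1.22 in KO) and Zg16 (-1.01 and -1.14) fell in both genotypes without an interaction call.

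Antimicrobial and acute-phase genes moved in both directions, with 11 of 24 positive (10.8% over all genes) and 4 negative (10.6%). The serum amyloid gene Saa1 was 886 and 848 CPM in untreated WT libraries and 307 and 311 after DSS. In KO, Saa1 was 581 and 591 CPM untreated and 383 and 444 after DSS. It fell in both genotypes and by less in KO, with log2 changes of -1.49 in WT and -0.50 in KO and an interaction of 0.99 ± 0.08 (SE, adjusted p = 1.09e-06), although the Saa family is similar enough in sequence that reads may be split among its members. C3, the central complement component, went from 21.6 and 23.4 CPM untreated to 26.0 and 25.1 after DSS in WT, and from 22.1 and 24.4 to 64.0 and 60.9 in KO. C3 had log2 changes of 0.19 in WT and 1.42 in KO and an interaction of 1.24 ± 0.10 (SE, adjusted p = 1.29e-06). The epithelial peroxide generator genes Duox2 (0.53), Duoxa2 (0.77) and Nox1 (0.51) and the protease inhibitor gene Slpi (0.79) were positive. All 4 negative members encode secreted antibacterial or mucosal proteins: Reg3b, its neighbour Reg3g, which went from 0.501 and 0.448 CPM untreated to 44.3 and 44.3 after DSS in WT, and from 0.699 and 0.857 to 29.98 and 29.9 in KO (-1.27), the resistin-like Retnlb, which went from 69.6 and 68.3 CPM untreated to 68.5 and 71.5 after DSS in WT, and from 92.8 and 96.2 to 60.2 and 66.2 in KO (-0.60), and the angiogenin Ang4 (-0.62). Lcn2, the siderophore-binding lipocalin, had 8 counts over DSS-treated WT and 430 over DSS-treated KO, and was at least 3-fold higher with DSS in WT and 132-fold (counting interval 44.8 to 642) higher in KO.

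Antigen presentation genes divided by class. The 6 positive members of 17 belong to the class I pathway, which loads proteasome products: H2-D1 went from 556 and 559.6 CPM untreated to 660.1 and 698 after DSS in WT, and from 610.4 and 624 to 973 and 1014 in KO (0.40 ± 0.06, adjusted p = 0.000257). The immunoproteasome subunit gene Psmb8 went from 27.4 and 30.2 CPM untreated to 27.8 and 28.7 after DSS in WT, and from 42.0 and 44.4 to 60.1 and 66.3 in KO (0.57 ± 0.10, adjusted p = 0.00109), and the others were Psmb9, Tapbp, H2-K1 and B2m. The 4 negative members belong to class II: the invariant chain gene Cd74 was 28.2 and 27.6 CPM in untreated WT libraries and 33.5 and 32.8 after DSS. In KO, Cd74 was 83.7 and 83.9 CPM untreated and 59.3 and 68.8 after DSS, with log2 changes of 0.25 in WT and -0.39 in KO and an interaction of -0.63 ± 0.10 (SE, adjusted p = 0.000433). H2-Aa (-0.53), H2-DMa (-0.95) and H2-DMb1 (-0.88) followed. All 4 Cd74 values in KO were above all 4 in WT, and DSS narrowed that gap. The negative count was 1 with DESeq2, and 2 with effective-length offsets or without untreated WT replicate 1, untreated KO replicate 1 or DSS-treated WT replicate 1. The positive count was 3 with effective-length offsets. Class I genes are close paralogs whose reads may be shared. Among interferon-induced genes 7 of 32 were positive (10.8% of all genes) and none negative (10.6%). With DESeq2 the positive count was 3. Over all genes 21.4% had a call in either direction, so this list held about the same share of calls as the genes as a whole. Zbp1, a sensor of Z-form nucleic acid, went from 28.03 and 29.3 CPM untreated to 27.3 and 27.0 after DSS in WT, and from 35.5 and 36.2 to 55.1 and 56.0 in KO (interaction 0.71 ± 0.08, adjusted p = 3.77e-05). The chemokine gene Cxcl9 went from 0.901 and 0.616 CPM untreated to 0.481 and 1.001 after DSS in WT, and from 0.890 and 0.857 to 5.01 and 5.38 in KO (interaction 2.60 ± 0.49, adjusted p = 0.00198), and the ubiquitin-like Isg15 went from 6.61 and 6.84 CPM untreated to 8.89 and 9.77 after DSS in WT, and from 7.75 and 8.81 to 18.2 and 20.4 in KO (interaction 0.74 ± 0.16, adjusted p = 0.00516). Over the list 20 of 32 were higher in untreated KO (9.19% of all genes) and 27 in DSS-treated KO (21.3% of all genes).

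Epithelial repair genes had 9 of 20 members positive and 1, Sprr1a, negative. Ly6a, the surface antigen Sca-1 that marks regenerating colon epithelium, was 126 and 125 CPM in untreated WT libraries and 211 and 208 after DSS. In KO, Ly6a was 182 and 177 CPM untreated and 624 and 669 after DSS. DSS-treated KO was about 3 times the level of DSS-treated WT, with log2 changes of 0.74 in WT and 1.85 in KO and an interaction of 1.11 ± 0.06 (SE, adjusted p = 5.59e-08). Il33, an alarmin stored in nuclei, went from 1.40 and 1.62 CPM untreated to 1.14 and 1.77 after DSS in WT, and from 1.33 and 1.47 to 6.44 and 6.70 in KO. Il33 had log2 changes of -0.05 in WT and 2.22 in KO and an interaction of 2.27 ± 0.35 (SE, adjusted p = 0.000474). The growth factor genes Areg (-0.56 in WT, -0.06 in KO) and Hbegf (-0.85 and -0.25) were positive, and both fell in WT. Clu, a marker of revival stem cells, fell in both genotypes with no interaction call (-0.97 and -0.997). Among 14 crypt stem cell and Wnt genes, 4 were negative (10.6% over all genes) and 1 positive (10.8%). The negative count was 1 with DESeq2 and 2 with epithelial scaling or effective-length offsets, and was also lower with single libraries left out. Prom1 went from 180.0 and 184 CPM untreated to 336 and 335 after DSS in WT, and from 233 and 233 to 277 and 279 in KO (-0.63 ± 0.06, adjusted p = 2.88e-06), and the growth regulator gene Myc had 0.35. The Myc call was lost without replicate 1 of untreated WT, untreated KO or DSS-treated WT and without DSS-treated KO replicate 2 (adjusted p over the alternatives 0.0102 to 0.167). The ligase gene Znrf3 had -0.43, lost under 6 of the 8 omissions (adjusted p over the alternatives 0.0336 to 0.271). The stem cell receptor gene Lgr5 had -0.23 ± 0.15, adjusted p = 0.293, with no call.

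Drug-metabolising enzymes were divided, with 10 of 27 positive (6 without DSS-treated WT replicate 1) and 11 negative. The positive members were 5 glutathione transferases, such as Gsta4 (0.79) and Gsta3 (0.61), 4 Cyp2d genes and the epoxide hydrolase gene Ephx1. All but Ephx1 fell in WT, by more than any fall in KO. The negative members were led by Cyp2c55, described above. The related gene Cyp2c65 went from 38.3 and 35.9 CPM untreated to 64.5 and 64.1 after DSS in WT, and from 68.4 and 70.7 to 25.1 and 26.2 in KO (-2.23 ± 0.08, adjusted p = 4.50e-10). Another was Aldh1a1, the retinal dehydrogenase, which went from 77.2 and 74.9 CPM untreated to 33.5 and 36.0 after DSS in WT, and from 95.2 and 103 to 19.4 and 19.5 in KO (-1.23 ± 0.09, adjusted p = 5.34e-07). Close paralogs in these families may share reads.

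RORα acts in the circadian clock. Of 16 measured clock genes, 6 had a negative interaction (10.6% over all genes) and 1 a positive one (10.8%). The median over the 16 was -0.26, from DSS changes of -0.41 in WT and -0.75 in KO. Per2, a repressor of the core loop, was 72.8 and 76.1 CPM in untreated WT libraries and 50.4 and 49.0 after DSS. In KO, Per2 was 128 and 124 CPM untreated and 44.8 and 42.0 after DSS. It was highest in untreated KO, and the DSS-treated groups lay close together, with log2 changes of -0.58 in WT and -1.54 in KO and an interaction of -0.95 ± 0.08 (SE, adjusted p = 1.03e-06). Cry2 went from 44.7 and 46.7 CPM untreated to 33.6 and 30.6 after DSS in WT, and from 57.9 and 58.9 to 23.0 and 23.6 in KO (-0.82 ± 0.09, adjusted p = 2.15e-05) and Per3 from 85.3 and 87.5 CPM untreated to 64.7 and 65.1 after DSS in WT, and from 90.4 and 88.0 to 46.0 and 43.7 in KO (-0.58 ± 0.07, adjusted p = 6.22e-05). Arntl, the activator BMAL1 and a known RORα target, had 0.36 ± 0.15, adjusted p = 0.118, and Nr1d1, which encodes REV-ERBα, had -0.01; neither passed the test. The positive member was Nfil3, a repressor that opposes the D-box activators Dbp and Tef, which went from 1.05 and 1.34 CPM untreated to 1.80 and 1.47 after DSS in WT, and from 0.699 and 1.22 to 4.60 and 4.18 in KO (1.72 ± 0.41, adjusted p = 0.00872) and had no call without untreated WT replicate 2. The labels give no time of day at which tissue was taken.

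Immediate-early genes answer growth signals and also the handling of tissue. Of 17, 7 were positive (10.8% over all genes) and 2 negative (10.6%). Junb went from 182 and 174 CPM untreated to 89.8 and 99.5 after DSS in WT, and from 132 and 131 to 131 and 136 in KO (interaction 0.93 ± 0.07, adjusted p = 9.49e-07), and the phosphatase gene Dusp1 was 83.6 and 81.6 CPM in untreated WT libraries and 15.6 and 17.5 after DSS. In KO, Dusp1 was 61.6 and 60.7 CPM untreated and 25.7 and 25.4 after DSS. DSS lowered Dusp1 in both genotypes and by less in KO, with log2 changes of -2.32 in WT and -1.26 in KO and an interaction of 1.06 ± 0.09 (SE, adjusted p = 1.95e-06). Fos had 0.37 and Jun, its partner in AP-1, -0.42, with both genes lower after DSS in both genotypes. Since cells were shaken off the tissue before RNA was taken, handling cannot be told apart from treatment for these genes.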

How the data were processed

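RNA from distal colon epithelial cells was measured in 8 libraries. Per the file headers, the deposited tables list an effective length and an expected count for each gene, an estimate that divides multiply mapping reads among genes. The build mm10 and the tools DESeq2 1.18.1, RSEM 1.3.0 and STAR 2.5.3a appear in the submitters' processing notes; the annotation release and strand setting are not given in the sources used here. Expected counts were rounded, filtered with filterByExpr, scaled with TMM and fitted in edgeR 4.0.16 (R 4.3.3) by quasi-likelihood with a mean per group and 4 residual degrees of freedom. P-values are two-sided and Benjamini-Hochberg adjusted over 14991 genes, with a threshold of 0.05; the SE was obtained as the change over the square root of F. Where a group held 0 counts, folds are bounds against 3 counts over the group, and with 1 to 3 counts a 95% exact counting interval is given; reads are not independent molecules, so these cover counting error only. Positions are from the GENCODE annotation of mm10, which held 99.8% of identifiers without their version.

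Genes and lists were chosen with earlier results of these data known. The rule named Rora, then 4 genes per direction of the KO only, WT only and opposite classes, 3 per direction of the shared-sign classes and 1 per direction of the remainder, by size of interaction, among genes with 1 sign for all 16 choices of 1 library per group and a mean of at least 5 CPM. That ranking omitted unnamed models, pseudogenes and ribosomal protein, antigen receptor and haemoglobin genes. From each of 28 lists it named the 3 members with the smallest p-values. Other list members are examples chosen after their values were seen. On simulated data with 200 changed genes among 14730, the interaction test called 34 of 50 genes at 1.5-fold, 49 of 50 at 2-fold, 50 of 50 at 4-fold and 49 of 50 at 0.5-fold, with 11 false among 193 calls. Those counts were drawn with the spread that the fit itself gave each gene, the same in every group. In the data, chi-square per degree of freedom was 4.85 in DSS-treated KO and 1.29 to 2.13 in the other groups. The simulation therefore cannot give the error rate of the reported calls. Alternatives were DESeq2 1.42.0, other scalings and filters, effective-length offsets, a replicate block, each library left out, a 1.5-fold class rule and differences of CPM. Some list members are not reported here.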

Additional observations from a re-analysis of the deposited data

Results flagged for a closer look

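The DSS change differed between the genotypes by the test of that difference itself at 1613 genes in the positive and 1595 in the negative direction. Among the named genes (log2 interaction), those that responded in KO only were Tac1 (1.94), Ier3 (1.70), Ankdd1b (1.41), Aspa (1.35), Alpi (-2.73), Mal (-2.13), Adra2a (-2.08) and Otc (-1.97). In WT only they were Car12 (-1.58), Kcnh3 (-1.42), Sprr1a (-1.32), Hoxa11 (-1.29), Syt8 (1.29), Pole2 (1.11), Mcm3 (1.002) and Rpa2 (0.999). Opposite in sign were Cep85 (1.99), C2cd4b (1.59), Abcg5 (1.54), Ly6g (1.504), H2-T3 (-3.40), Prkg2 (-3.17), Abca12 (-2.97) and Slc3a1 (-2.91). Larger in KO were Saa3 (5.31), Lrg1 (4.61), Srgn (3.82), Fabp2 (-2.58), Cyp2c55 (-2.52) and Tppp (-2.23). Smaller in KO were Reg3b (-3.28), Rassf4 (-1.68), Sptssb (-1.41), Srp54a (3.42), St8sia5 (1.498) and S100g (1.40). Mad2l2 (0.61) and Tuba1a (-0.83) had no response past the threshold in either genotype.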

How the results depend on the processing

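The share of reported calls kept by an alternative fit ran from 50.6% (DESeq2) to 99.2% (RLE size factors). With the DESeq2 Wald test there were 1623 interaction calls (825 positive, 798 negative), 3379 for DSS in WT, and 1182 and 3801 between genotypes untreated and under DSS; KO only, WT only, opposite, larger, smaller and neither held 706, 375, 120, 292, 83 and 47 genes. With effective-length offsets these were 1794 (882 and 912), 1290 between untreated genotypes, and 815, 387, 161, 300, 82 and 49 in the classes. Epithelial scaling gave 967 negative calls. A class rule with a 1.5-fold minimum gave 720, 275, 34, 192, 36 and 1951. The cause of these shifts was not tested, except that the class minimum moves genes to the neither class by construction. With each library left out, interaction calls ran from 1891 to 4444 (positive 945 to 2276, negative 943 to 2168), DSS in WT from 3659 to 6426, DSS in KO from 4603 to 6263, genotypes untreated from 953 to 3174 and under DSS from 4093 to 6182, and the classes from 780 to 1558, 366 to 1193, 154 to 661, 310 to 669, 77 to 207 and 33 to 159. Clca1 reversed as a difference of CPM (184). Of 103 named results, 7 lost their call with DESeq2, 13 with effective-length offsets, 5 with epithelial scaling, 1 without the filter and 3 to 10 with a library left out. With the replicate block there were 3085 interaction calls and no named gene lost its call. Deviations of replicate 1 were correlated between groups over 10572 genes. For untreated WT the correlation was -0.33 with DSS-treated WT and -0.42 with DSS-treated KO. Between the DSS-treated groups it was 0.38, and for untreated KO with each other group -0.03 to 0.09. Replicate numbers thus did not pair all groups alike, but part of the spread was shared between groups. Its source was not tested. Depth limits genes near 0 untreated, whose log2 interaction is poorly determined.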

Other observations

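Enteroendocrine genes, which mark the hormone-producing cells of the epithelium, had 5 of 12 members with a negative interaction and none positive (median -0.37). Chgb, a granule protein, went from 72.3 and 72.8 CPM untreated to 176 and 173 after DSS in WT, and from 79.8 and 79.0 to 133 and 127 in KO (-0.56 ± 0.06, adjusted p = 3.89e-05). Gcg, the precursor of GLP-1, went from 22.3 and 25.2 CPM untreated to 45.8 and 43.4 after DSS in WT, and from 22.05 and 22.5 to 26.0 and 23.2 in KO (-0.77 ± 0.11, adjusted p = 0.000284). Tph1, which makes serotonin in enterochromaffin cells, went from 12.96 and 11.8 CPM untreated to 16.9 and 15.4 after DSS in WT, and from 17.4 and 17.4 to 12.4 and 12.6 in KO (-0.85 ± 0.13, adjusted p = 0.000346). The hormone gene Sct had -1.14, while Pyy (0.09) and Insl5 (0.10) had no call. Of 7 tuft cell genes 3 were positive (10.8% over all genes) and 1 negative (10.6%). The positive count was 1 with DESeq2 or effective-length offsets, and was also lower with single libraries left out. Alox5ap, which leukocytes also express, went from 1.05 and 1.18 CPM untreated to 0.601 and 1.12 after DSS in WT, and from 1.59 and 1.35 to 8.75 and 8.01 in KO (2.87 ± 0.40, adjusted p = 0.000191). The defining tuft cell gene Dclk1 went the other way, from 3.45 and 3.59 CPM untreated to 1.32 and 0.824 after DSS in WT, and from 5.72 and 3.24 to 0.288 and 0.401 in KO (-1.96 ± 0.57, adjusted p = 0.0245). The call of Dclk1 was lost with effective-length offsets and without replicate 1 of any group (adjusted p over the alternatives 0.000668 to 0.158).

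Tight junction genes had 7 of 16 members negative (10.6% over all genes) and 2 positive (10.8%). The negative count was 2 with DESeq2, epithelial scaling or effective-length offsets, and was also lower with single libraries left out. Cldn8, a sealing claudin, went from 88.6 and 92.5 CPM untreated to 69.3 and 66.8 after DSS in WT, and from 96.8 and 98.1 to 117 and 121 in KO (0.70 ± 0.07, adjusted p = 6.77e-06). Cldn4 went from 35.1 and 40.5 CPM untreated to 52.8 and 51.3 after DSS in WT, and from 60.7 and 59.6 to 42.7 and 48.4 in KO (-0.86 ± 0.10, adjusted p = 4.40e-05). Cldn15, which forms cation pores, went from 102 and 105 CPM untreated to 158 and 166 after DSS in WT, and from 101 and 99.3 to 111 and 122 in KO (-0.43 ± 0.07, adjusted p = 0.00105). Unfolded protein response genes had 4 of 20 positive (10.8% over all genes) and none negative (10.6%). Over all genes 21.4% had a call in either direction, so this list held no more calls than the genes as a whole. Calr (0.30 ± 0.05, adjusted p = 0.00162), Herpud1 (0.33 ± 0.07, adjusted p = 0.00401) and Hsp90b1 (0.26 ± 0.06, adjusted p = 0.00479) were the leading members, and Hsp90b1 lost its call with effective-length offsets (adjusted p over the alternatives 0.000173 to 0.0502). Of 10 general epithelial genes, the intestinal homeobox gene Cdx2 went from 108 and 111 CPM untreated to 142 and 147 after DSS in WT, and from 139.8 and 137 to 102 and 109 in KO (-0.79 ± 0.07, adjusted p = 2.21e-06), the transcription factor gene Elf3 was positive (0.31 ± 0.07, adjusted p = 0.00403) and Vil1, villin, negative (-0.20 ± 0.06, adjusted p = 0.0255), a call lost without untreated WT replicate 1, either untreated KO library or DSS-treated WT replicate 1, with epithelial scaling and with effective-length offsets (adjusted p over the alternatives 0.00184 to 0.182).

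Of 5 erythrocyte markers 3 were negative (10.6% over all genes). Hba-a2 went from 17.7 and 18.3 CPM untreated to 42.8 and 46.5 after DSS in WT, and from 18.9 and 21.4 to 21.1 and 23.6 in KO (-1.16 ± 0.12, adjusted p = 1.27e-05), Hba-a1 from 16.2 and 18.0 CPM untreated to 45.2 and 40.5 after DSS in WT, and from 20.1 and 17.8 to 21.3 and 20.8 in KO (-1.17 ± 0.12, adjusted p = 1.65e-05) and Hbb-bs from 27.6 and 26.4 CPM untreated to 57.2 and 58.6 after DSS in WT, and from 26.7 and 29.3 to 36.6 and 42.5 in KO (-0.60 ± 0.11, adjusted p = 0.00125), with the list at 160 to 162 CPM in DSS-treated WT and 67.8 to 96.7 in the other libraries; Hba-a1 and Hba-a2 are near-identical copies. The Y-linked genes Kdm5d (-0.30 ± 0.08, adjusted p = 0.0176) and Ddx3y (-0.27 ± 0.08, adjusted p = 0.0232) also had small negative interactions, while Eif2s3y (-0.08) and Uty (0.05) had none. The call of Kdm5d was lost under 5 of 16 alternatives, among them leaving out replicate 1 of untreated WT, untreated KO or DSS-treated WT (adjusted p over the alternatives 0.00395 to 0.120). The call of Ddx3y was lost under 10 of 16, among them leaving out either library of those 3 groups (adjusted p over the alternatives 0.0198 to 0.242).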
